A study of Mus musculus with 4 samples.

Results

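The 10 genes described here encode transcription factors of the hair follicle bulge, the niche at the base of the permanent follicle that holds its stem cells. They are Sox9, Lhx2, Nfatc1, Tcf7l1, Tcf7l2, Tbx1, Foxc1, Nfib, Nfix and Runx1. They were chosen by symbol from a list of factors known for this cell type, with no measured value in the rule. Earlier results of these data were known when the choice was made. All 10 were found among the 24084 gene rows of the count table, and all 10 were among the 12920 genes with enough counts to be tested.

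The study sequenced poly(A) mRNA of sorted hair follicle stem cells from back skin epidermis of C57BL/6 mice aged 7 to 10 weeks. The skin had been depilated 4 days before, which sets off hair growth. The 2 Foxp3-DTR libraries (C and D) came from mice that carry the diphtheria toxin receptor in Foxp3-expressing regulatory T cells, and the 2 WT libraries (A and C) from mice without it. All animals of both groups received diphtheria toxin at 15 ng/g into the peritoneum, so regulatory T cells are labelled as depleted in Foxp3-DTR and as present in WT. The comparison asks how stem cell expression differs without regulatory T cells.

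Some features of the whole data set touch every value given here. Gene counts per library ran from 13911765 to 15923154. Foxp3 had 0 counts in all 4 libraries, so the depletion cannot be checked in these cells. The Y-linked genes Kdm5d, Uty, Ddx3y and Eif2s3y, 4 in all, summed to 319 and 259 CPM (reads of a gene scaled to one TMM-normalized library size) in Foxp3-DTR C and D, with 0 counts in both WT libraries. Xist stood at 1.86 and 0 CPM in Foxp3-DTR C and D, against 860 and 2481 CPM in WT A and C. The sample titles also carry one code for both Foxp3-DTR libraries and another for both WT libraries. Group therefore cannot be told apart from the sex of the animals, or from whatever that code marks.

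The labelled cell type was checked against marker genes. All 8 bulge markers were detected, among them Krt15 at 7251 to 11747 CPM, Cd34 at 936 to 1708 CPM and Lgr5 at 352 to 539 CPM over the 4 libraries. The 8 leukocyte markers summed to 22.7 and 4.39 CPM in Foxp3-DTR C and D, against 25.2 and 1.78 CPM in WT A and C, mostly from Cd74, and Cd4 had 0 counts. The 7 fibroblast markers summed to at most 53.4 CPM, and Lum and Dpt had 0 counts. Suprabasal epidermal markers, with 6 of 7 in the table, divided the libraries across the groups, with sums of 1173 and 6797 CPM in Foxp3-DTR C and D, against 8011 and 932 CPM in WT A and C.

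Bulge stem cells rest for long periods and divide briefly at the onset of hair growth. Transcription factors of several families hold that state: in mice, Sox9, Lhx2, Nfib, Nfix and Tbx1 are needed to keep the bulge population, Nfatc1 and Foxc1 favour quiescence, and Runx1 favours the start of growth. Tcf7l1 and Tcf7l2 bind Wnt target genes, which they repress until beta-catenin joins them.

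Lhx2 and Tbx1 had lower mean levels in Foxp3-DTR and Runx1 a higher one, each by about a factor of 2, and the other 7 factors differed by less. None of the 10 passed the test over all genes. By the quasi-likelihood test of edgeR, Benjamini-Hochberg adjusted, 0 of 10 passed at an adjusted p of 0.05, where 1.25% of all tested genes passed (0.820% higher and 0.426% lower in Foxp3-DTR). At an unadjusted p under 0.05 there were 3 of 10, Lhx2, Tbx1 and Runx1, against 14.6% of all tested genes. DESeq2 called these same genes, 2 lower and 1 higher, where it called 7.40% of the 13559 genes it gave an adjusted p (3.61% higher and 3.79% lower). Limma-voom called 0 of 10 and 0.720% of all tested genes. In 9 of 10 factors the libraries of the groups did not overlap in CPM, 6 lower and 3 higher in Foxp3-DTR, where 45.7% of tested genes did not overlap. The median log2 fold change of the 10 factors was -0.13, and that of all tested genes -0.01. Their median absolute log2 fold change was 0.30, close to the 0.28 of all tested genes. No source used here says whether each library is a separate animal, so every p-value reflects the spread among these 4 libraries, which may be technical.

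**Figure D1:**
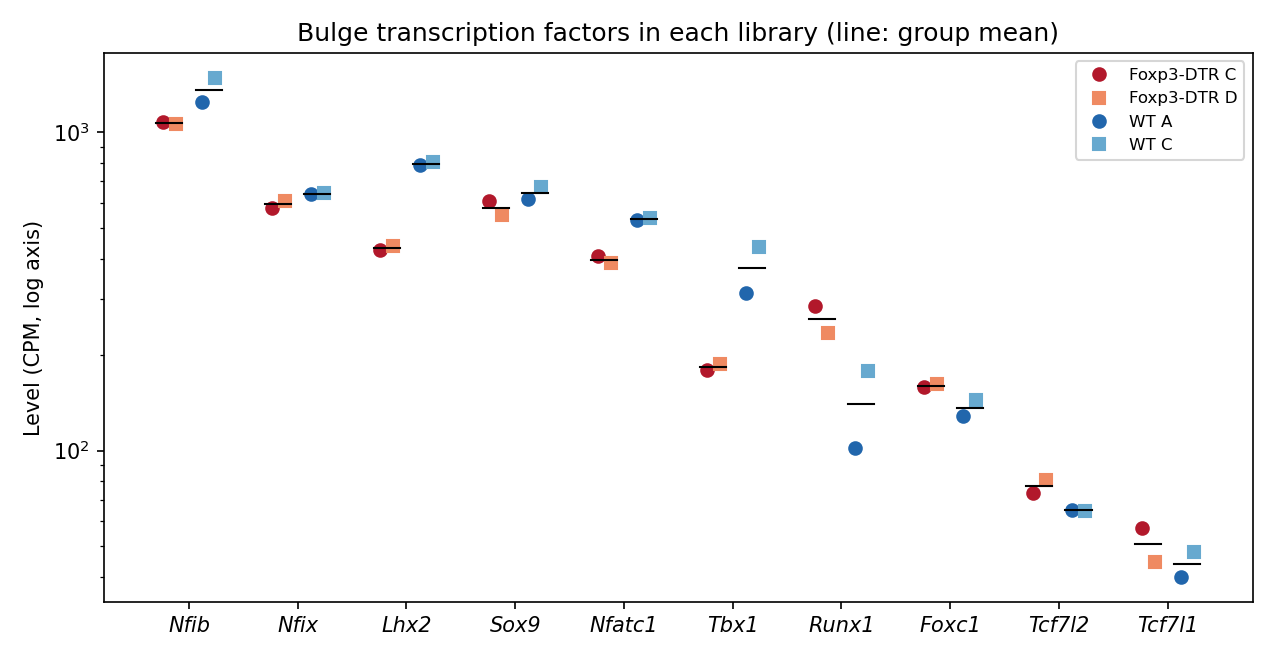
Level of each transcription factor in CPM (log axis) in each library, Foxp3-DTR libraries left of WT libraries, with a line at each group's mean. Lhx2 and Tbx1 lie lower in both Foxp3-DTR libraries than in both WT libraries, Runx1 lies higher, and Sox9 and Nfix differ little.

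Lhx2 had, with Tbx1, the largest negative fold change of the 10 factors, and its libraries agreed closely within each group. Lhx2 is a LIM homeodomain factor that maintains bulge stem cells, and its gene lies on mm10 chromosome 2 from 38339281 to 38369733 (plus strand). It stood at 425 and 439 CPM in Foxp3-DTR C and D, against 788 and 804 CPM in WT A and C. The groups were far apart and the libraries within each group at most 1.03-fold apart. The log2 fold change was -0.88 ± 0.18 (SE), a level at 0.542 times that of WT (95% interval 0.399 to 0.736), with an edgeR adjusted p of 0.0778. It passed in DESeq2 (adjusted p = 3.03e-05) and without a filter on low counts (adjusted p = 0.0470), over a range of adjusted p up to 0.640 among 11 alternatives. In bulk libraries a smaller share of Lhx2-expressing cells and less Lhx2 RNA per cell cannot be told apart.

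Tbx1, a T-box factor that supports repeated self-renewal of bulge cells, differed by a similar amount. Its gene lies on chromosome 16 from 18580979 to 18590671 (minus strand). It had 179 and 188 CPM in Foxp3-DTR C and D, against 312 and 435 CPM in WT A and C. Both Foxp3-DTR libraries were below both WT libraries, and the WT libraries lay further from each other than the Foxp3-DTR ones. The log2 fold change was -1.03 ± 0.22, or 0.490 times the WT level (95% interval 0.341 to 0.705), with an edgeR adjusted p of 0.0811. It passed without WT A, with a log2 fold change of -1.23 and an edgeR adjusted p of 0.0303, in DESeq2 (adjusted p = 0.000466) and without the filter (adjusted p = 0.0338), and reached 0.436 at most.

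Runx1 was the factor with the largest positive fold change. It is a runt-domain factor that promotes stem cell proliferation at the onset of hair growth (chromosome 16, 92601466 to 92826149, minus strand). It stood at 284 and 235 CPM in Foxp3-DTR C and D, against 102 and 178 CPM in WT A and C. The groups did not overlap, but WT C had 1.75 times the level of WT A, where the median gene's WT libraries differed 1.27-fold. The log2 fold change was 0.89 ± 0.29, or 1.85 times the WT level (95% interval 1.14 to 3.02), with an edgeR adjusted p of 0.218. The size of this log2 fold change depended on the libraries kept, most on the WT ones. It was 0.56 without WT A and 1.35 without WT C, against 0.75 without Foxp3-DTR C and 1.03 without Foxp3-DTR D. DESeq2 called it higher, with an adjusted p of 0.0375, and the adjusted p reached 0.805 over the 11 alternatives. WT A, the WT library with less Runx1, was also the one with more suprabasal marker RNA (8011 CPM, against 932 CPM in WT C) and more sebaceous gland marker RNA (2168 CPM, against 541 CPM in WT C); the part of these in the Runx1 values was not tested.

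Ratios of factors within a library do not depend on its depth. Per kilobase of exon, Runx1 amounted to 0.244 and 0.195 of Lhx2 in Foxp3-DTR C and D, against 0.0472 and 0.0809 in WT A and C. The Foxp3-DTR ratios were both above the WT ratios. Likewise Lhx2 amounted to 0.657 and 0.751 of Sox9 in Foxp3-DTR C and D, against 1.21 and 1.13 in WT A and C, so Lhx2 was above Sox9 in both WT libraries and below it in both Foxp3-DTR libraries.

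The promoters of Lhx2, Tbx1 and Runx1 are shown because these 3 factors had the largest fold changes. RefSeq windows of GRCm38.p6, the assembly that mm10 names, gave 14 start sites for 7 of the 10 factors, and the 250 bases before each start were searched on both strands. The 8 motifs were CTTTGA (TCF/LEF), ACAATG (SOX), TAATTA (LIM homeodomain), GGAAAA (NFAT), TTGGCA (NFI), TGTGGT (RUNX), TGTTTA (FOX) and GGTGTGA (T-box), none of which overlapped another in these windows. Capitals mark matches, and all sequences run 5′ to 3′ on the gene's strand. The first is the outermost Lhx2 start (chr2:38339031-38339280, plus), the next the outermost Tbx1 start (chr16:18590672-18590921, minus), and then follow the distal (chr16:92826075-92826324, minus) and proximal (chr16:92697330-92697579, minus) Runx1 starts.
Lhx2: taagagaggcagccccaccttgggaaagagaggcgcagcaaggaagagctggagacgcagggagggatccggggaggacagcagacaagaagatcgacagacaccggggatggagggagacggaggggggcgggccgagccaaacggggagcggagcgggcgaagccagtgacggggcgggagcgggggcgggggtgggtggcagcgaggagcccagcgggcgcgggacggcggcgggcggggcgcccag
Tbx1: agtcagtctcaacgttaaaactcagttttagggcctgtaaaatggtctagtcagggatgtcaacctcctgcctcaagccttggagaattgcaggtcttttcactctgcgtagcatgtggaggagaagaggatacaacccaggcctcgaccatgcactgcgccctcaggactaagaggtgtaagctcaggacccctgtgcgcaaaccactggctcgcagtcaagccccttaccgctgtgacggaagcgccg
Runx1 distal: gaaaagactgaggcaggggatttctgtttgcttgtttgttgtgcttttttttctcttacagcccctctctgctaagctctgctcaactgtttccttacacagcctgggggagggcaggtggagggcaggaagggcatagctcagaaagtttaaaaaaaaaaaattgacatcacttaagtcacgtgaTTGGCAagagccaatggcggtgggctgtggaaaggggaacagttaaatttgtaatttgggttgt
Runx1 proximal: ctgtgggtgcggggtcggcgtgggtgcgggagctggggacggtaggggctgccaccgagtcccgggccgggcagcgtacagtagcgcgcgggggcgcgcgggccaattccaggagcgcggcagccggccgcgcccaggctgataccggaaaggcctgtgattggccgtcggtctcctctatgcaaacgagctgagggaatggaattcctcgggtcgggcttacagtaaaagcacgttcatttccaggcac
The distal Runx1 window held TTGGCA 64 bases before the start, a motif present in 12.3% of all 32851 windows, and the other 3 windows shown held none of the 8 motifs. Lhx2 and Tbx1 each had a second start in the table, not shown, of which the Lhx2 one held GGAAAA 139 bases before it and the Tbx1 one none. In base composition the Runx1 windows differed from each other, with 45.6% G and C and 2 CG dinucleotides in the distal one and 67.6% and 27 in the proximal one. The Lhx2 window had 72.8% G and C with 25 CG dinucleotides and the Tbx1 window 54.4% with 10, where the median window had 52.4%. Gene counts do not show which start was used. Over all 14 windows GGAAAA was found in 3, against 20.4% of all windows, and CTTTGA and GGTGTGA in 0, against 13.8% and 3.33%.

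Sox9, an HMG-box factor present from the earliest follicle stem cells on, differed little. Its gene lies on chromosome 11 from 112782224 to 112787760 (plus strand). It stood at 608 and 550 CPM in Foxp3-DTR C and D, against 615 and 670 CPM in WT A and C. Foxp3-DTR C and WT A were nearly level. The fold was 0.901 (95% interval 0.658 to 1.23), with an edgeR adjusted p of 0.804.

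Nfatc1, the calcium and calcineurin responsive factor that holds bulge cells in quiescence, was between Lhx2 and Sox9 in the size of its difference (chromosome 18, 80606205 to 80713071, minus strand). It stood at 407 and 387 CPM in Foxp3-DTR C and D, against 531 and 538 CPM in WT A and C. Libraries within each group were close and the groups did not overlap. The log2 fold change was -0.43 ± 0.18, or 0.742 times the WT level (95% interval 0.551 to 1.0003), with an edgeR adjusted p of 0.342.

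The nuclear factor I genes Nfib and Nfix, which keep bulge enhancers open in mice, had small negative fold changes. Nfib (chromosome 4, 82290173 to 82705750, minus strand) stood at 1074 and 1058 CPM in Foxp3-DTR C and D, against 1238 and 1478 CPM in WT A and C. Nfix (chromosome 8, 84699876 to 84800344, minus strand) stood at 579 and 609 CPM in Foxp3-DTR C and D, against 638 and 642 CPM in WT A and C. For each gene both Foxp3-DTR libraries lay below both WT libraries. Their folds were 0.785 (95% interval 0.562 to 1.10) and 0.929 (0.685 to 1.26), with edgeR adjusted p of 0.518 and 0.862. Together they made up 76.3% to 79.8% of the summed per-kilobase level of the 4 nuclear factor I genes across the libraries, the rest being Nfic and Nfia.

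The remaining factors, Foxc1, Tcf7l2 and Tcf7l1, had small positive fold changes. Foxc1, a forkhead factor that returns activated stem cells to quiescence (chromosome 13, 31806633 to 31812476, plus strand), stood at 158 and 162 CPM in Foxp3-DTR C and D, against 128 and 144 CPM in WT A and C. Tcf7l2 (chromosome 19, 55741820 to 55933654, plus strand) stood at 73.6 and 80.9 CPM in Foxp3-DTR C and D, against 65.0 and 64.8 CPM in WT A and C. In neither gene did the groups overlap, and the folds were 1.18 (95% interval 0.882 to 1.57) and 1.19 (0.889 to 1.59), with edgeR adjusted p of 0.632 and 0.606. Tcf7l1 (chromosome 6, 72626378 to 72789254, minus strand) was the factor whose groups overlapped, with 57.2 and 44.8 CPM in Foxp3-DTR C and D, against 40.1 and 47.9 CPM in WT A and C. Its fold was 1.16 (95% interval 0.801 to 1.68), with an edgeR adjusted p of 0.753. For the 7 factors whose interval held no change, the bounds ran from 0.551 to 1.68 times the WT level.

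**Figure D2:**
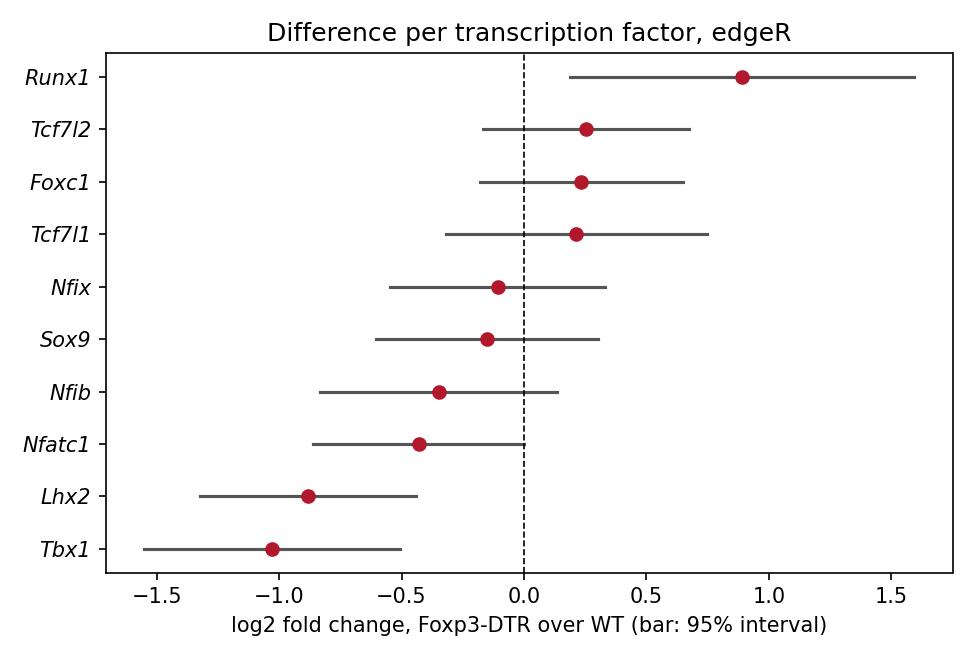
The log2 fold change of each transcription factor, Foxp3-DTR over WT, with its 95% interval from edgeR. The intervals of Lhx2, Tbx1 and Runx1 leave out 0, and those of the other 7 factors hold it.

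Levels of different genes were compared per kilobase of annotated exon, and the order of the 10 factors differed between the groups. In Foxp3-DTR the order by mean was Sox9 (140 ± 10.0 CPM per kilobase, SD, n = 2), Lhx2 (98.3 ± 2.23), Nfix (80.8 ± 2.85), Nfib (71.3 ± 0.757), Nfatc1 (53.1 ± 1.91) and Tbx1 (52.1 ± 1.76). Foxc1 (27.3 ± 0.476), Runx1 (21.6 ± 2.90), Tcf7l1 (13.0 ± 2.23) and Tcf7l2 (8.80 ± 0.583) followed. Nfatc1 and Tbx1 were neighbours whose libraries overlapped, and the other neighbours in Foxp3-DTR did not overlap. In WT the order was Lhx2 (181 ± 2.48 CPM per kilobase), Sox9 (155 ± 9.36), Tbx1 (106 ± 24.7), Nfib (90.8 ± 11.3), Nfix (87.0 ± 0.405) and Nfatc1 (71.5 ± 0.701). Then came Foxc1 (23.3 ± 1.93), Runx1 (11.6 ± 4.47), Tcf7l1 (11.2 ± 1.40) and Tcf7l2 (7.40 ± 0.0180). The libraries of Tbx1 and Nfib, of Nfib and Nfix and of Runx1 and Tcf7l1 overlapped in WT. Tbx1 thus held rank 6 by mean in Foxp3-DTR and rank 3 in WT, and Tcf7l2 rank 10 in both.

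**Figure D3:**
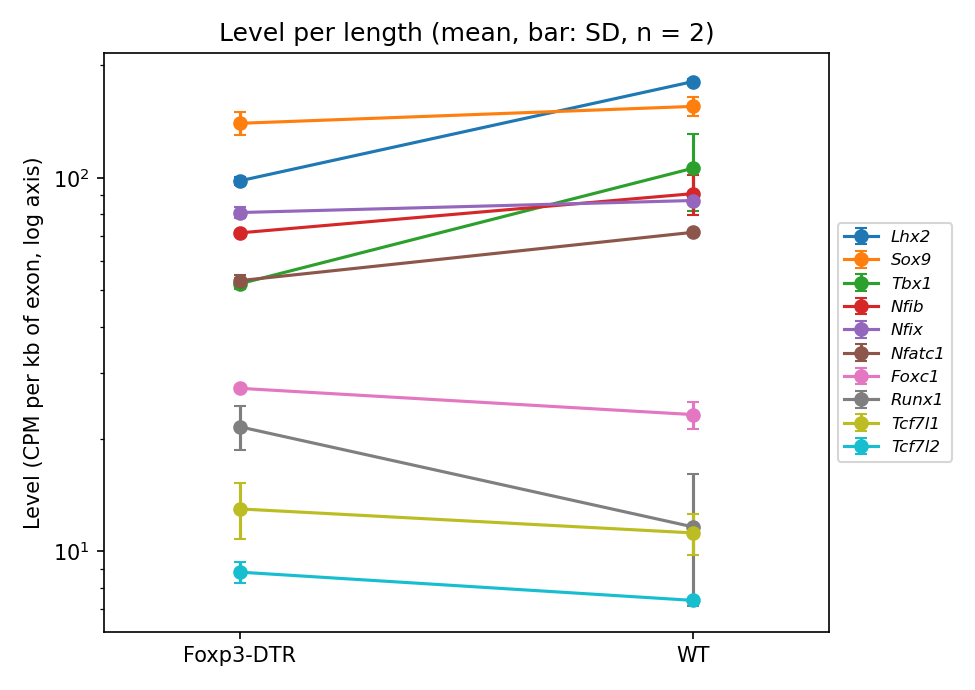
Mean level of each factor per kilobase of exon (CPM per kb, log axis) in Foxp3-DTR and in WT, with bars for the SD of 2 libraries. Lines that cross are factors whose order differed, such as Lhx2 and Sox9, with Lhx2 at 98.3 in Foxp3-DTR and 181 in WT.

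To describe which factors had like profiles, levels over the 4 libraries were centred on the log2 scale and compared by their root mean square difference. Of 45 pairs the closest were Tcf7l2 and Foxc1 (0.07), Sox9 and Nfix (0.09) and Nfatc1 and Nfib (0.10). The farthest were Tbx1 and Runx1 (0.99), Lhx2 and Runx1 (0.96) and Nfatc1 and Runx1 (0.74). Lhx2 and Tbx1 differed by 0.17. These profiles share their libraries and depth, and 4 points support no test.

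Close relatives of the factors were measured to see which family genes these cells held. Of 17 relatives 11 were tested and 0 passed in edgeR's test, with 2 at an unadjusted p under 0.05, 1 higher in DESeq2 and 0 in limma-voom. Over all genes 14.6% had an unadjusted edgeR p under 0.05, DESeq2 called 3.61% higher and limma-voom called 0.720%. Runx1 made up 96.4% to 98.8% of the summed per-kilobase level of the 3 RUNX genes in each library. Nfatc1 made up 58.5% and 63.8% of the 5 NFAT genes in Foxp3-DTR C and D, against 75.7% and 66.9% in WT A and C. Nfat5 was the next in all libraries except WT A, where Nfatc3 was. The relatives with the smallest p were Lef1, Runx3 and Sox10, all at low levels. Lef1, the TCF family member that partners beta-catenin in the growing follicle, stood at 12.2 and 19.8 CPM in Foxp3-DTR C and D, against 4.85 and 6.64 CPM in WT A and C (log2 fold change 1.47 ± 0.41, edgeR adjusted p = 0.145). Runx3 reached at most 1.86 CPM and Sox10, a melanocyte and glial factor, at most 2.92 CPM, with log2 fold changes of 2.97 ± 1.12 and 1.58 ± 0.80. Lhx9, Tbx10 and Tbx18 had 0 counts in all libraries, which allows up to 0.212 CPM in any of them.

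Among cofactors and regulators of the factors, 0 of 21 tested genes passed in edgeR's test, with 3 at an unadjusted p under 0.05, 1 lower in DESeq2 and 0 in limma-voom. The shares over all genes were 14.6% at an unadjusted edgeR p under 0.05, 3.79% lower in DESeq2 and 0.720% in limma-voom. Tle3, a Groucho corepressor that TCF, RUNX and other factors recruit, had 64.6 and 59.8 CPM in Foxp3-DTR C and D, against 137 and 119 CPM in WT A and C. It was just outside the threshold, with a log2 fold change of -1.04 ± 0.18 and an edgeR adjusted p of 0.0543. Tle3 was the gene called lower in DESeq2 (adjusted p = 0.000206). It also passed without a filter on low counts (edgeR adjusted p = 0.0187), but not in limma-voom (adjusted p = 0.0664). Its log2 fold change ran from -1.14 to -0.92 over the 11 alternatives. Smad1, which carries BMP signals, and Id1, a target of those signals, did not pass (edgeR adjusted p = 0.252 and 0.331), at log2 fold changes of 0.48 ± 0.17 and -0.55 ± 0.22. Beta-catenin (Ctnnb1) stood at 1136 and 1051 CPM in Foxp3-DTR C and D, against 1327 and 1227 CPM in WT A and C. Cbfb, the partner that all RUNX proteins need to bind DNA well, stood at 193 and 186 CPM in Foxp3-DTR C and D, against 215 and 229 CPM in WT A and C. The calcineurin catalytic subunit gene Ppp3ca, which acts upstream of Nfatc1, stood at 287 and 277 CPM in Foxp3-DTR C and D, against 270 and 261 CPM in WT A and C. The LIM cofactor gene Ldb1 ranged from 234 to 328 CPM with overlapping groups. These 4 were named after their values were seen, and none passed. Their edgeR adjusted p were 0.689 for Ctnnb1, 0.637 for Cbfb, 0.884 for Ppp3ca and 0.833 for Ldb1.

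Of 6 genes tied to single factors in mouse follicle work, 0 passed in edgeR's test, with 3 at an unadjusted p under 0.05, 1 higher and 1 lower in DESeq2 and 0 in limma-voom. Among all genes these shares were 14.6% unadjusted, 3.61% higher and 3.79% lower in DESeq2, and 0.720% in limma-voom. Inhbb, an activin subunit gene linked to Sox9, had 255 and 185 CPM in Foxp3-DTR C and D, against 95.3 and 107 CPM in WT A and C (log2 fold change 1.12 ± 0.22, edgeR adjusted p = 0.0676). Edn2, an endothelin linked to Nfib, had 3.65 and 9.99 CPM in Foxp3-DTR C and D, against 43.5 and 25.4 CPM in WT A and C (log2 fold change -2.34 ± 0.54, edgeR adjusted p = 0.106). Both depended on the libraries kept. Without WT A, the log2 fold changes were 1.05 for Inhbb and -1.88 for Edn2, against 1.21 and -2.67 without WT C. Without Foxp3-DTR D, the log2 fold changes were 1.34 for Inhbb (edgeR adjusted p = 0.0363) and -3.23 for Edn2 (edgeR adjusted p = 0.00687). Without Foxp3-DTR C they were 0.88 (edgeR adjusted p = 0.376) and -1.78 (edgeR adjusted p = 0.182). Cdk4, a cell cycle kinase gene repressed by Nfatc1, had 202 and 253 CPM in Foxp3-DTR C and D, against 438 and 297 CPM in WT A and C (edgeR adjusted p = 0.259).

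Among other transcription factors of follicle epithelium, Myc, Stat3 and Klf5 rose and Sox4 fell. These 4 were the calls among 34 tested in edgeR's test, where 0.820% of all tested genes were called higher and 0.426% lower. The median absolute log2 fold change of the 34 was 0.62, where that of all tested genes was 0.28. The list was chosen with earlier results of these data known. It therefore cannot show whether follicle transcription factors differed more than other genes. Myc, a driver of cell growth and division, rose to 212 ± 54.8 CPM in Foxp3-DTR, against 58.6 ± 8.61 CPM in WT (SD, n = 2 each; log2 fold change 1.86 ± 0.24, edgeR adjusted p = 0.0323). Stat3, the transducer of IL-6 family cytokines, rose to 650 ± 123 CPM in Foxp3-DTR, against 233 ± 9.42 CPM in WT (1.48 ± 0.21, edgeR adjusted p = 0.0411). Klf5, a zinc finger factor of interfollicular epidermis, rose to 41.1 ± 5.87 CPM in Foxp3-DTR, against 11.7 ± 1.81 CPM in WT (1.82 ± 0.26, edgeR adjusted p = 0.0420). Sox4, an HMG-box factor like Sox9, fell to 10.2 ± 4.06 CPM in Foxp3-DTR, against 46.9 ± 0.343 CPM in WT (-2.21 ± 0.33, edgeR adjusted p = 0.0426). Without Foxp3-DTR C, 0 of the 34 passed, with edgeR adjusted p of 0.0512 for Myc, 0.140 for Stat3, 0.129 for Klf5 and 0.0844 for Sox4. Without the robust fit Myc alone passed (edgeR adjusted p = 0.0452), and Stat3 and Klf5 were at 0.0522 and Sox4 at 0.0534. In a single set of simulated counts, the same test made more false calls than its threshold allows. Those counts were drawn with each gene's spread as estimated from these same libraries. DESeq2 called 5 higher and 6 lower and limma-voom 2 and 1 (3 and 3 with robust moderation). Over all genes DESeq2 called 3.61% higher and 3.79% lower, and limma-voom with default moderation 0.542% and 0.178%.

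**Figure D4:**
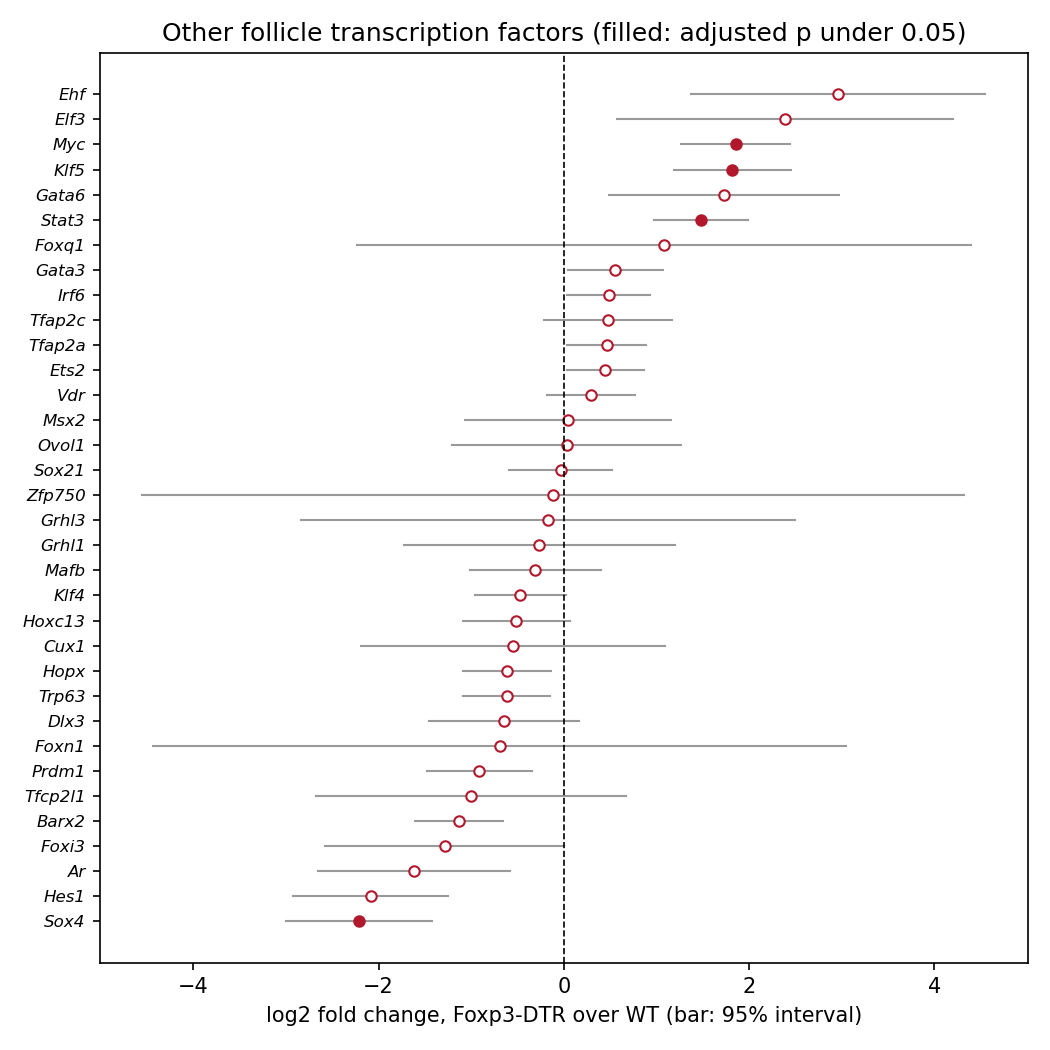
The log2 fold change of 34 other follicle transcription factors, Foxp3-DTR over WT, with 95% intervals from edgeR. Filled points mark Myc, Stat3 and Klf5, which rose, and Sox4, which fell.

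The hair germ lies below the bulge, and its cells also express Lhx2. Summed over the list, its markers were lower in the same libraries as Lhx2 and Tbx1, but single markers went both ways. The 6 genes summed to 691 and 743 CPM in Foxp3-DTR C and D, against 1327 and 1455 CPM in WT A and C. Sostdc1 carried most of that difference, with 70.5 and 143 CPM in Foxp3-DTR C and D, against 657 and 551 CPM in WT A and C. Fold changes were negative in 3 and positive in 2 of the 5 tested markers. Of 5 tested, Sostdc1 fell (log2 fold change -2.50, edgeR adjusted p = 0.0441). The call was lost without the robust fit (edgeR adjusted p = 0.0533) and when either WT library was left out. Its log2 fold change was -2.35 without WT A and -2.62 without WT C. DESeq2 (adjusted p = 1.18e-11) and limma-voom (adjusted p = 0.0359) also called it lower. Gli1 and Ptch1 had log2 fold changes of -1.07 and -1.15 (edgeR adjusted p = 0.0877 and 0.0854). Cdh3 and Lef1 had 0.44 and 1.47 (edgeR adjusted p = 0.393 and 0.145), while Shh had at most 0.141 CPM. DESeq2 also called Gli1 and Ptch1 lower (adjusted p = 0.00105 and 0.00112) and Lef1 higher (adjusted p = 0.0334). Over all genes it called 3.79% lower and 3.61% higher. The 8 bulge markers summed to 32643 and 34658 CPM in Foxp3-DTR C and D, against 16869 and 24226 CPM in WT A and C, and Postn carried that difference. Postn had 21268 and 20177 CPM in Foxp3-DTR C and D, against 4651 and 9563 CPM in WT A and C (edgeR adjusted p = 0.0999). Without it the other 7 summed to 11375 and 14481 CPM in Foxp3-DTR C and D, against 12218 and 14663 CPM in WT A and C, and the groups overlapped. Most of that sum was Krt15. Krt15 stood at -0.28 and Lgr5 at -0.14 in log2 fold change, with overlapping groups in both. Of the 8 markers, 6 had positive fold changes. Cd34, Itga6, Krt24 and Fgf18 had log2 fold changes of 0.63, 0.70, 0.90 and 2.60, with both Foxp3-DTR libraries above both WT libraries. In edgeR's test 0 of the 8 passed. The groups did not overlap in 5 of the 8, where 45.7% of all tested genes did not overlap. Mki67, a gene of dividing cells, stood at 62.8 and 123 CPM in Foxp3-DTR C and D, against 519 and 323 CPM in WT A and C (log2 fold change -2.18 ± 0.40, edgeR adjusted p = 0.0741). It was thus lower in the same libraries as Lhx2 and Tbx1. The part of these markers in the values of Lhx2 and Tbx1 was not tested.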

How the data were processed

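The kit was stranded and selected poly(A) mRNA, per the labels' protocols. The authors deposited raw counts of reads per gene symbol. HTSeq 0.6.1, TopHat2 2.0.12, CASAVA 1.8.2, SAMtools 0.1.19.0, Bowtie2 2.1.0.0 and build mm10 are named in the submitters' processing notes. The annotation and strand setting of the counting were not given in the sources used here, so reads of overlapping genes on either strand cannot be told apart. In GENCODE M21, genes overlapping exons of a listed factor were found for Tcf7l1 (179 bases with Gm15401, which reached 0.352 CPM), Nfix (137 and 4 bases) and Runx1 (106 bases).

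The 5 rows of the deposited counts that name no gene held 62.0% to 70.1% of a library's counts and entered neither library sizes nor tests. The test of Foxp3-DTR over WT used edgeR 4.0.16 under R 4.3.3 (TMM, filterByExpr, robust glmQLFit, glmQLFTest, no covariate), adjusted over 12920 genes at a threshold of 0.05. Standard errors and 95% intervals came from the fold change, its F statistic and the moderated degrees of freedom. DESeq2 1.42.0, limma 3.58.1, other scalings, no filter, a fit that is not robust and each library left out were alternatives. The procedure was tested on a single set of simulated counts, where edgeR made more false calls than its threshold allows. Each gene's spread in that set was the one estimated from these same libraries. A count of 0 was read as up to 3 counts, for counting error only. Levels per kilobase used GENCODE M21 exon lengths, which may differ from the authors' annotation. In the lists, all genes past the threshold were named, or else the 3 with the smallest p. The 10 factors and all lists were chosen with earlier results of these data known.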

Additional observations from a re-analysis of the deposited data

How the results depend on the processing

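All 10 factors kept the sign of their fold change in the 11 alternatives, and of 110 such values 103 stayed on the same side of the threshold and 7 became significant. The count of factors called was 1 higher and 2 lower with DESeq2, 2 lower without a filter on low counts, and 0 to 1 in each direction when 1 library was left out (Tbx1 lower without WT A, Runx1 higher without WT C). Over all tested genes, 106 higher and 55 lower became 489 and 514 with DESeq2, 70 and 23 with limma-voom, 277 and 252 without the filter, 73 and 25 without the robust fit, and 66 to 203 and 14 to 220 with 1 library left out. Of the 34 other follicle transcription factors, 3 higher and 1 lower became 1 and 0 without the robust fit and 0 and 0 without Foxp3-DTR C. Over all genes, the total tested was 15688 without the filter and 13287 to 13379 with 1 library left out. It was 12920 in the main test, in limma-voom and without the robust fit, and DESeq2 gave 13559 genes an adjusted p. The cause of the differences between settings was not tested. A limma-voom fit with robust eBayes moderation was the first of its kind run, and the default moderation replaced it after its counts were seen. It called 113 higher and 66 lower genes, 0 of the 10 factors, and 3 higher and 3 lower of the 34 other follicle transcription factors, where the default called 2 and 1. When a library was left out, the lone library of its group was assumed to vary like the other group. No paired analysis was possible because the groups share only the replicate letter C. With 2 libraries per group, precision is limited by the spread between libraries rather than by counts, since every factor had at least 570 counts in each library.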
